A study of Homo sapiens with 4 samples.

Results

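In HEK293 cells all 10 genes of the RNA interference core that was looked at lay above a baseline of control genes on every array, as did 45.0% of all genes. A limma test called all 10, beside 45.9% of all genes. With a higher baseline it called 6 of the 10, beside 28.6% of all genes. For AGO3 and AGO4 the signal rested on 1 bright probe of 3. The 10 genes were chosen by name, with earlier results of these data known, as the proteins that cut, carry and use small RNAs. Their probes were found through the RefSeq accession in each probe's name. All 10 were matched, with 36 probes on 12 targets, out of 17214 named genes and 71998 probes on the array. HEK293 is a transformed human embryonic kidney line that carries adenovirus DNA. The arrays came from 4 biological replicates of this line, grown untreated in DMEM with 10% FBS, each from a culture and an RNA extraction of its own, and there was no other group.

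RNA interference turns short double-stranded RNA into a guide that silences matching messages. In the nucleus DROSHA and its partner DGCR8 cut a hairpin out of a primary microRNA transcript. XPO5 carries the hairpin to the cytoplasm, where DICER1, helped by the double-stranded RNA-binding proteins TARBP2 and PRKRA, trims it to a duplex. One strand is then loaded into an Argonaute protein, AGO1 to AGO4, which finds the target message.

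Some of these genes hold microRNAs within their own span, and these are shown because DROSHA is known to cut hairpins in the DGCR8 message itself. The RefSeq tables (GRCh38.p14) placed MIR3618 and MIR1306 within DGCR8 and MIR3173 within DICER1, in each case on the strand of the gene. The mature sequences follow, with the seed (bases 2 to 8) in capitals. The 5 seeds all differed. The microRNAs themselves were not measured on these arrays.
hsa-miR-3618 (in DGCR8, chr22:20085797-20085818, plus strand): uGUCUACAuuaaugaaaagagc
hsa-miR-1306-5p (in DGCR8, chr22:20086072-20086093, plus strand): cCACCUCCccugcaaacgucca
hsa-miR-1306-3p (in DGCR8, chr22:20086112-20086129, plus strand): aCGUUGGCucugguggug
hsa-miR-3173-3p (in DICER1, chr14:95137923-95137944, minus strand): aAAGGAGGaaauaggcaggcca
hsa-miR-3173-5p (in DICER1, chr14:95137961-95137982, minus strand): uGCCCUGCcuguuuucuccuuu

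Each target had 3 probes of 60 bases, and the values were log2 intensities. Zero expression was set as in the study's methods, from genes for seminal proteins that such cells should not transcribe. The 10 matched control genes gave each array a baseline, their mean level raised by 2 SD, and the distance of a gene is its log2 level minus the baseline of the array. For replicates 1 to 4 the baseline came to 9.47, 9.94, 10.69 and 10.32. Every probe binds with its own strength, so a larger distance does not show that a cell holds more of one message than of another. The cells carried the markers of the line in part, with 8 of 12 above the baseline on every array (VIM and KRT8 among them). PAX2 and LHX1 were below it on each array. Of 10 markers of the mature kidney 1 was above it throughout (LRP2), and of 10 markers of other cell types (immune, endothelial, liver, red cell, fibroblast, glial) none was, with PTPRC, PECAM1 and ALB below the baseline on each array and COL1A1 and GFAP above it on 2. Replicates 1 and 3 stood apart from 2 and 4 in the neurofilament NEFM, whose level was 13.57 and 13.09 on the former and 8.32 and 8.08 on the latter.

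All 10 genes had a mean distance above 0, and all 10 exceeded the baseline on every array. Among all genes 52.7% had a mean distance above 0 and 45.0% lay above the baseline on every array. The median distance of the 10 genes was 2.41 log2 units, beside 0.26 over all genes. A one-sided limma test of the distances against 0, adjusted over all 17214 genes, called the 10 genes as well, and it called 45.9% of all genes. The largest adjusted p of the 10 was 0.0052, for AGO3. The fit gave every gene the same standard error, 0.351, and a shift of the baseline moves all genes of an array together, so the tests are not independent of each other. With a higher baseline, the mean plus 3 SD, 6 of the 10 were called (DICER1, DROSHA, XPO5, AGO2, TARBP2 and PRKRA), beside 28.6% of all genes.

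**Figure D1:**
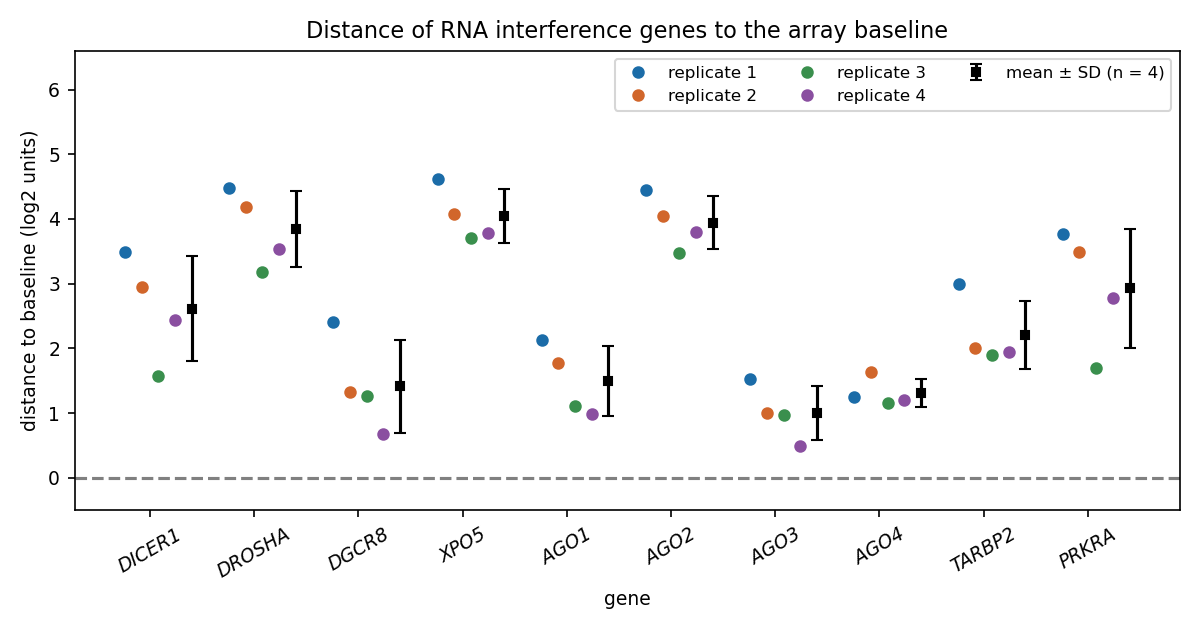
Distance of each gene to the baseline of its array in log2 units (vertical axis) for the 10 genes (horizontal axis), with a coloured point for each of the 4 replicates, a black square for the mean and a bar for the SD (n = 4). Every point lies above the dashed line at 0, and replicate 1, which had the lowest baseline, is the highest point for 9 of the 10 genes.

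The nuclear step was represented by both of its proteins. DROSHA, the ribonuclease III that makes the first cut, had levels of 13.95, 14.12, 13.87 and 13.85 log2 units on replicates 1 to 4. Its distance was 3.84 ± 0.59 (SD, n = 4). The arrays were close together, with an SD of the level of 0.12. DGCR8, which binds the hairpin and places DROSHA on it, had levels of 11.87, 11.26, 11.95 and 11.00. Replicates 1 and 3 were thus higher than 2 and 4, and this held for each of its 3 probes. Its distance was 1.41 ± 0.72 (SD, n = 4), with the lowest value, 0.67, on replicate 4.

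XPO5, the carrier of hairpins out of the nucleus, had levels of 14.08, 14.02, 14.39 and 14.10. Its distance of 4.04 ± 0.41 (SD, n = 4) was larger than the spread between arrays. All 3 of its probes lay above the baseline on every array, although the brightest and the dimmest differed by 3.10 log2 units.

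In the cytoplasm DICER1, the ribonuclease III that makes the second cut, had levels of 12.95, 12.88, 12.27 and 12.76. Replicate 3 was the low array. The distance was 2.61 ± 0.81 (SD, n = 4) and ran from 1.58 on replicate 3 to 3.49 on replicate 1. PRKRA, which binds DICER1 and is also known to activate the kinase PKR, had levels of 13.23, 13.42, 12.38 and 13.10. Here too replicate 3 was the low array, and the distance was 2.93 ± 0.92 (SD, n = 4). The mean level of 20 widely used reference genes was also lowest on replicate 3, at 14.32 beside 14.54 to 14.71 on the others. Taken relative to those genes, the SD of DICER1 over the arrays fell from 0.31 to 0.14 log2 units and that of PRKRA from 0.45 to 0.28, while the SD of the other 8 genes rose. The median SD of the 10 genes went from 0.29 to 0.33 log2 units, beside 0.42 to 0.47 over all genes. Whether the array as a whole accounts for the low values was not tested.

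TARBP2, the other partner of DICER1 and an inhibitor of PKR, had 3 targets, and they did not give the same picture. The target NM_004178 had a distance of 2.85 ± 0.50 and NM_134323 one of 2.90 ± 0.48 (SD, n = 4 for each), and all 6 of their probes lay above the baseline on every array. In the order of their numbers, the probe means were 13.13, 12.51 and 13.13 for the former and 13.22, 12.51 and 13.17 for the latter. Whether these probes read the same sites was not tested, so the 2 targets may not be separate readings. NM_134324 had a distance of 0.88 ± 0.59 (SD, n = 4). Its probe numbered 630 read 12.79, 12.15, 12.76 and 12.29, like the probes of the other targets. Its probe numbered 21 read 6.37, 6.80, 8.17 and 7.81, and the one numbered 72 read 5.85, 6.14, 6.78 and 7.62, both below the baseline on each array. The range between the brightest and the dimmest probe mean of this target, 5.90 log2 units, was exceeded by 1.42% of the 19122 named targets.

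The number in a probe's name behaved as a position along the transcript, since in genes that span under 1500 bases it left room for a probe of 60 bases within the span for 98.9% of 1806 probes. Probes numbered 100 or less were dim on the array as a whole, with a median of 7.36 log2 units beside 9.47 for the others. The probe numbered 125 of NM_004178, also near the start, read 12.80 to 13.39. The part that place along the transcript has in the dim readings of NM_134324 was not tested. As a gene, with its targets averaged, TARBP2 had levels of 12.46, 11.94, 12.59 and 12.27 and a distance of 2.21 ± 0.52 (SD, n = 4). With the highest target in place of the mean the distance was 2.87.

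**Figure D2:**
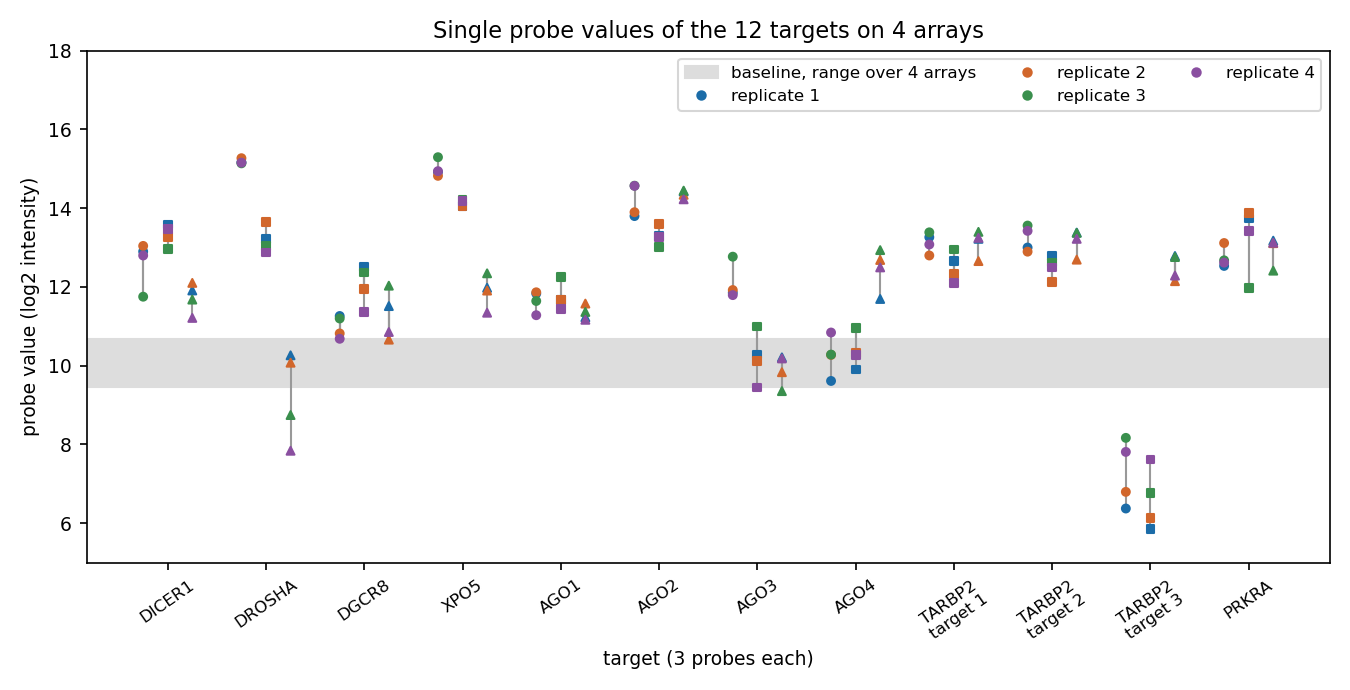
Log2 intensity of single probes (vertical axis) for the 12 targets (horizontal axis), with 3 columns of points per target for its probes, from the lowest number in the name (circles) over the middle (squares) to the highest (triangles), one colour per replicate. Targets 1, 2 and 3 of TARBP2 are NM_004178, NM_134323 and NM_134324. The grey band is the range of the 4 baselines, 9.47 to 10.69, and 2 probes of TARBP2 target 3 lie wholly below it.

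The Argonautes are the proteins that hold the small RNA, and AGO2 is the member best known for cutting the target itself. AGO2 had levels of 13.92, 13.98, 14.16 and 14.12, the smallest SD among the 10 genes at 0.11. Its distance was 3.94 ± 0.41 (SD, n = 4), and each of its 3 probes stood at least 2.33 log2 units above the baseline on every array.

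The other Argonautes lie side by side on chromosome 1 in the order AGO4, AGO1 and AGO3, with no other protein-coding gene between them in the RefSeq table. Their distances were the lowest of the 10 genes along with that of DGCR8. AGO1 had levels of 11.60, 11.71, 11.81 and 11.30, and a distance of 1.50 ± 0.55 (SD, n = 4). Its 3 probes were within 0.42 log2 units of each other on average, and all were above the baseline on every array.

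AGO4 had levels of 10.72, 11.57, 11.85 and 11.53, so that replicate 1 was the low array, and a distance of 1.31 ± 0.22 (SD, n = 4). AGO3 had levels of 11.00, 10.94, 11.66 and 10.82, with replicate 3 high, and a distance of 1.00 ± 0.42 (SD, n = 4). For both genes the distance rested on 1 bright probe of 3. The bright probe of AGO4 stood 2.35 log2 units above the baseline on average, while the other probes stood at 0.15 and 0.26 and each fell below it on 1 array. The bright probe of AGO3 stood at 1.98, and the others at 0.11 and -0.21. With the median of the probes AGO3 had a distance of 0.43 (limma adjusted p = 0.181) and AGO4 one of 0.54 (limma adjusted p = 0.0906), so neither passed. On replicates 3 and 4 alone AGO3 stood at 0.73 (limma adjusted p = 0.0635).

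The 250 bases before the start of each of these neighbours are shown because the genes lie in a row and yet each has a RefSeq start of its own. Capitals mark GGGCGG or its reverse complement CCGCCC, the GC box that Sp1 is known to bind. AGO1 and AGO3 each held 2 such boxes and AGO4 held none. In the windows of 300 bases around the start, 45.0% of 35116 windows had the box.
AGO4 (chr1:35807766-35808015, plus strand): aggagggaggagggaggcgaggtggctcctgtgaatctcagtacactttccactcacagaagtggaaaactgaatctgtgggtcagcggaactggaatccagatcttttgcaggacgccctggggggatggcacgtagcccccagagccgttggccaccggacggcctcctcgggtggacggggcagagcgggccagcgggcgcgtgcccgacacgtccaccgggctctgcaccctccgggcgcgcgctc
AGO1 (chr1:35882959-35883208, plus strand): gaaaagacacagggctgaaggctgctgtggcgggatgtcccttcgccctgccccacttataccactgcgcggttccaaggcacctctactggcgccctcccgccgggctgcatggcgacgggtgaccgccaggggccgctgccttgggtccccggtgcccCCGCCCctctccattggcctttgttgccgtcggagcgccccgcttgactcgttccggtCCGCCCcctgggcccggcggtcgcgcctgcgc
AGO3 (chr1:35930855-35931104, plus strand): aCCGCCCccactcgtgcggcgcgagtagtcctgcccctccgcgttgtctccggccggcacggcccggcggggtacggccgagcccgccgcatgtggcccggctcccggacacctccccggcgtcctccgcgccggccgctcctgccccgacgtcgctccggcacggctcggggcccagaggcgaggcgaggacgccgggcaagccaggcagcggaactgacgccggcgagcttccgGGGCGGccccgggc

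RefSeq windows were matched for 9 of the 10 genes, 17 windows in all, and the gene left over was AGO2. DICER1 gave 5 of the windows and PRKRA and TARBP2 gave 3 each, so the windows are not separate observations. A GC box was found in 13 of these 17 windows, beside 45.0% of all windows, and in 8 of the 9 genes. The share of all genes with a box was not computed. TATAAA or its reverse complement was found in none of the 17, beside 11.5% of all windows. The match of letters describes the windows only.

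Counted over single probes, 29 of the 36 (80.6%) exceeded the baseline on every array, 5 on some arrays and 2 on none. Among the probes of all named targets the share above on all arrays was 38.3%. The 3 targets of TARBP2 belong to a single gene and their probes may share sites. The counts of probes and targets are therefore not all separate observations. All 3 probes passed in 8 of the 12 targets, and this was so in 24.0% of all named targets. The exceptions were AGO3, AGO4, NM_134324 of TARBP2 and DROSHA. In DROSHA the probe numbered 3426 read 15.14 to 15.27, the probe numbered 4416 read 12.88 to 13.65, and the probe numbered 4663 read 7.84 to 10.26 and passed the baseline on replicates 1 and 2. This spread of 5.95 log2 units was exceeded by 1.36% of named targets, and with the mean of the log2 probe values DROSHA stood at 2.77 in place of 3.84.

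Between arrays the median SD of the level was 0.29 log2 units for the 10 genes and 0.42 over all genes. The SD of 3 of the 10 (AGO4, DGCR8 and PRKRA) lay above the latter. The 10 genes stood at percentiles 57.3 to 93.3 of mean level, and the SD was not compared with that of genes at a like level. No array was low or high throughout. Replicate 3 held the highest level for 7 of the genes and the lowest for DICER1 and PRKRA. The subtraction of the baseline changed that order, because replicate 1 had the lowest baseline, and it raised the median SD to 0.53.

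**Figure D3:**
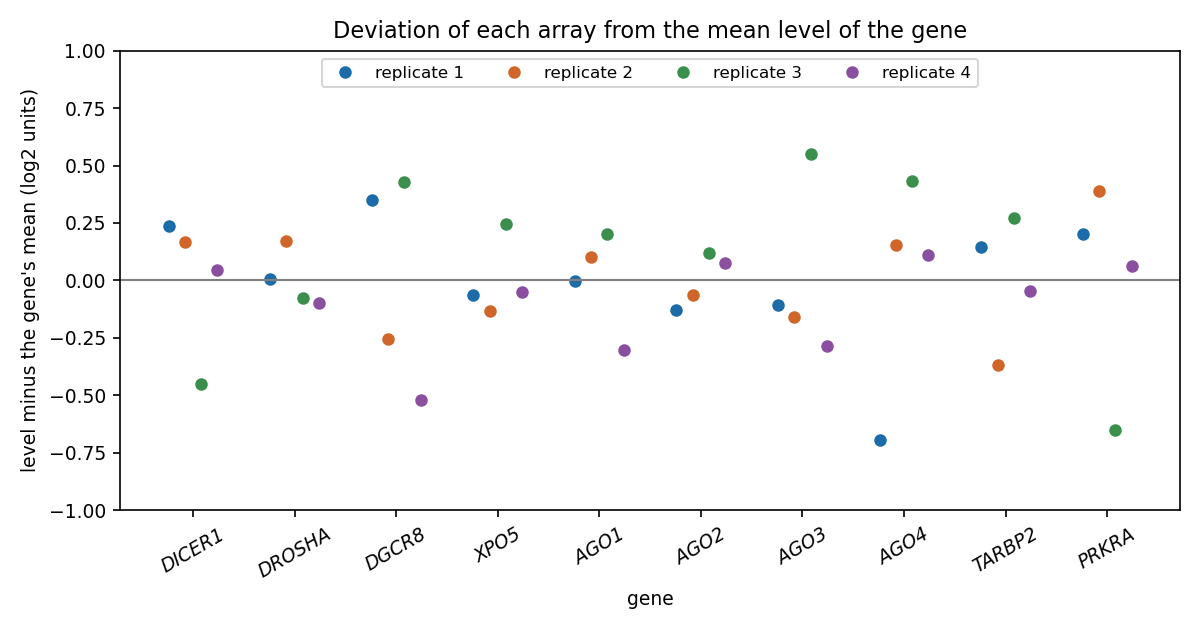
Level of each gene on each array minus the mean level of that gene over the 4 arrays, in log2 units (vertical axis), for the 10 genes (horizontal axis), with one colour per replicate. The points of AGO2 and DROSHA lie close to 0, replicate 3 is low for DICER1 and PRKRA and high for 7 other genes, and replicate 1 is low for AGO4.

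The genes that act with the Argonautes on the target message were then set against the same baseline. Of 26 such effectors 25 were called by the limma test, beside 45.9% of all genes, with a median distance of 3.09 log2 units. The GW182 scaffold proteins, which link an Argonaute to the deadenylases, were all above the baseline on all arrays. TNRC6A stood at 4.38 ± 0.64, TNRC6B at 1.99 ± 0.68 and TNRC6C at 2.10 ± 0.57 (SD, n = 4 for each). The largest distances belonged to the chaperones HSP90AB1 (5.25 ± 1.21) and HSP90AA1 (4.61 ± 1.03), which help to load Argonautes, to the nuclease SND1 (5.23 ± 0.63) and to the poly(A)-binding protein PABPC1 (5.14 ± 0.86, SD, n = 4 for each). CNOT6L and TSNAX were among the lowest that passed, at 1.51 ± 0.62 and 1.69 ± 0.88 (SD, n = 4 for each). The distance of GEMIN4 was 0.71 ± 0.72 (SD, n = 4) and its adjusted p by limma 0.0481. It did not pass without replicate 1, 2 or 4, where the adjusted p ran from 0.106 to 0.23. Nor did it pass with the array pair (replicates 1 and 2, and 3 and 4) as a random block (limma adjusted p = 0.110). It passed in 9 of 18 alternatives. The helicase DDX6, a part of P-bodies, did not pass, at -0.62 ± 0.64 (SD, n = 4), and was above the baseline on replicate 1 alone. That call turned with the baseline. Under 4 lower baselines (the mean plus 1 SD, the median plus 2 median absolute deviations, olfactory receptor genes as controls, and the controls without SPATA5 and SPATA13) DDX6 passed, at 0.70 to 1.71 log2 units, with a largest limma adjusted p of 0.0277, and 58.9% to 68.6% of all genes passed as well.

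Of 26 cofactors and regulators of small RNA processing 21 were called, beside 45.9% of all genes, with a median distance of 3.52. ILF2 (5.48 ± 0.64) and HNRNPA1 (5.29 ± 0.63) had the largest distances, and the helicase DHX9 lay at 4.89 ± 0.63 (SD, n = 4 for each). The paralogs LIN28A and LIN28B, which hold back the maturation of let-7, differed. LIN28B had levels of 13.56, 14.40, 13.83 and 14.11 and a distance of 3.87 ± 0.56 (SD, n = 4). LIN28A had levels of 8.52, 9.23, 7.59 and 9.53 and lay below the baseline on each array, at -1.39 ± 1.14 (SD, n = 4). TUT4 and TUT7, the terminal uridylyl transferases that LIN28A is known to recruit, were called. They stood at 3.31 ± 0.71 and 1.26 ± 0.71 (SD, n = 4 for each). DIS3L2, which degrades the tailed precursor, was called as well, at 1.43 ± 0.46 (SD, n = 4).

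The ADAR family includes enzymes that change adenosine to inosine in double-stranded RNA. In this family ADAR stood at 4.77 ± 0.61, ADARB1 at -0.02 ± 0.36 and ADARB2 at -2.74 ± 0.48 (SD, n = 4 for each). ADARB1 was above the baseline on 2 arrays and did not pass, but under the same 4 lower baselines it stood at 1.29 to 2.30 log2 units and passed, with a largest limma adjusted p of 6.7e-05. EIF2AK2, the kinase PKR that PRKRA activates and TARBP2 inhibits, stood at 3.68 ± 0.69 (SD, n = 4). TRIM71 and ZC3H12A were below the baseline on each array, at -3.24 ± 0.50 and -2.19 ± 1.17 (SD, n = 4 for each). The distance of CLP1 was 0.78 ± 1.14 (SD, n = 4) and its adjusted p by limma 0.0287, and the distance fell to 0.27 without replicate 1 (limma adjusted p = 0.444). With the array pair as a random block the limma adjusted p of CLP1 was 0.077, and it passed in 12 of 18 alternatives. Its level was higher on replicates 1 and 3 (11.78 and 11.56) than on 2 and 4 (10.26 and 9.95), a split that this block does not take up.

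The PIWI pathway is the branch of small RNA silencing that guards the genome of germ cells, and it served as the contrast. Of 20 genes listed 18 were matched and 2 were called, beside 45.9% of all genes. The median distance was -2.98 log2 units, beside -3.06 for the control genes. All 4 PIWI proteins, the germline counterparts of the Argonautes, lay below the baseline on each array. PIWIL1 stood at -3.51 ± 0.18, PIWIL2 at -2.86 ± 0.63, PIWIL3 at -2.74 ± 0.74 and PIWIL4 at -2.87 ± 1.23 (SD, n = 4 for each). GTSF1, TDRD5, DDX4 and ASZ1 had the lowest distances, from -3.67 to -3.55. The genes called were PLD6, an enzyme of the mitochondrial surface, at 2.36 ± 0.58 (SD, n = 4), and the tudor protein TDRD6, whose distance of 0.77 ± 0.99 (SD, n = 4) had a limma adjusted p of 0.0323. TDRD6 no longer passed without replicate 1 or replicate 2, at 0.32 (limma adjusted p = 0.368) and 0.85 (limma adjusted p = 0.0608), nor with the array pair as a random block (limma adjusted p = 0.0835), and PLD6 passed in each of these. The level of TDRD6 was higher on replicates 1 and 3 (11.58 and 11.39) than on 2 and 4 (10.46 and 10.06), which the block does not take up. Under the 4 lower baselines TDRKH passed too, which made 3 genes of the pathway.

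**Figure D4:**
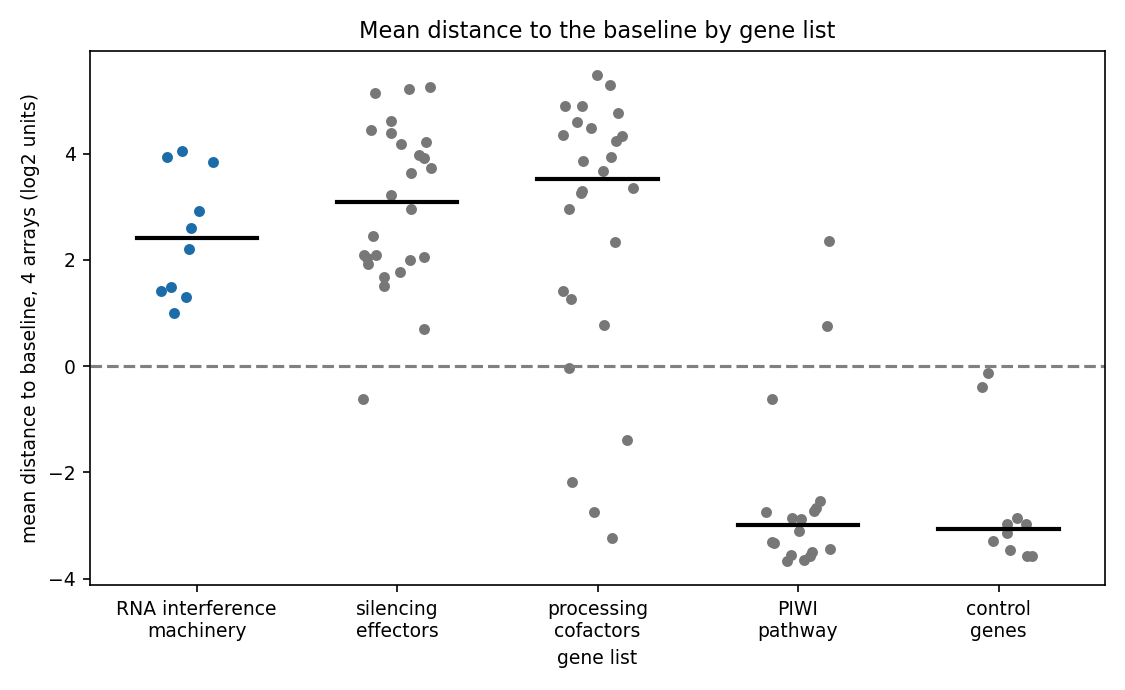
Mean distance to the baseline over 4 arrays in log2 units (vertical axis), a point per gene, for the 10 RNA interference genes, 26 effectors, 26 processing cofactors, 18 PIWI pathway genes and 10 control genes (horizontal axis), with a bar at the median of each list and a dashed line at the baseline. The medians are 2.41, 3.09, 3.52, -2.98 and -3.06, and the spread of points sideways carries no meaning.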

How the data were processed

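The authors deposited log2 intensities per probe, from Cy3-labelled cDNA on 1-colour NimbleGen HG18 arrays with 60 base probes. The submitters' processing notes name RMA; the order of steps is not given in the sources used here. Sorted values of replicates 1 and 2, and of 3 and 4, were nearly identical, which is the form of normalization in 2 pairs. Any 2 arrays had a Pearson's r of 0.949 to 0.977 across genes, which are not independent replicates. It was highest for replicates 2 and 4 (0.977) and for 1 and 3 (0.971). The array pair used as a random block was that of the normalization, 1 with 2 and 3 with 4. It does not take up a split of replicates 1 and 3 against 2 and 4. Raw intensities were not used here, so the background of single spots is unknown.

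RefSeq accessions, versions dropped, were looked up in a RefSeq table (GRCh38.p14, gene names only), which named 19122 of 24000 targets. Probe values were averaged on the linear scale and returned to log2 to give a target's level, and a gene's level the mean of its targets. Of 11 control genes PYY2 was not matched. Distances to the baseline were tested one-sided against 0 with limma 3.58.1 in R 4.3.3, with Benjamini-Hochberg adjustment over 17214 genes at 0.05. The fit was also run on simulated data with independent noise of the same variance for all genes. Those data hold no shift shared by the genes of an array, so they do not check the p-values against such shifts. With 4 arrays an exact sign-flip test has 0.0625 as its smallest p. The 10 genes and the lists were chosen with earlier results of these data known. In each list the 4 largest and 4 smallest distances could be named, as could the LIN28, TNRC6, PIWI, TUT and ADAR genes and EIF2AK2. CLP1, DIS3L2, TDRKH and the marker genes were named after their values were seen. Alternatives changed the baseline, its control genes, the summary of probes and targets, the normalization, the arrays used, the variance model and the filter.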

Additional observations from a re-analysis of the deposited data

Results flagged for a closer look

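The levels and distances of the 10 genes were searched for an array that stood apart, 20 checks in all, of which chance marks about 1 in 20. One was marked. For TARBP2 replicate 1 gave a distance of 2.99, while the remaining arrays gave 1.90 to 2.01. Before the baseline was subtracted, replicate 1 lay between the others, at 12.46 beside 11.94 to 12.59, and its baseline of 9.47 was the lowest of the 4 arrays.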

How the results depend on the processing

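For the 10 genes, 173 of the 180 alternative values kept the direction and the call, 5 no longer passed and 2 changed sign. With a baseline of the mean plus 3 SD, AGO3 stood at -0.32 and AGO4 at -0.0060, and AGO1 and DGCR8 at 0.18 and 0.10 without passing. The count of genes called fell from 10 to 6 there, that of effectors from 25 to 15, and that of the PIWI pathway from 2 to 1, while the share of all genes called fell from 45.9% to 28.6%. The PIWI count was also 1, PLD6, with the mean or the median of the log2 probe values, on replicates 3 and 4 alone, with the trend and robust prior, with the array pair as a random block, and when all 4 arrays had to lie above the baseline, and it ran from 1 to 2 when single replicates were left out. It was 3, with TDRKH added, under the 4 baselines below the reported one, where 58.9% to 68.6% of all genes were called. The array pair as a random block took the count of effectors to 24, without GEMIN4, and that of cofactors to 20, without CLP1. The cause was not tested. DICER1, DROSHA, XPO5, AGO2, TARBP2 and PRKRA passed under every alternative run. AGO3 passed when any single replicate was left out. With SPATA5 and SPATA13 out of the controls the baseline fell from 10.10 to 7.78 log2 units and all 10 distances rose by the same amount. The variance models and the filter leave the count of mean distances above 0 as it is, so they were not run for it. No paired analysis was possible because the design holds 1 group.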
